A study of Mus musculus with 10 samples.

Results

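The genes described here build the peroxisome and run its lipid metabolism. They are 34 genes chosen by name: peroxins, the proteins that assemble the organelle, together with peroxisomal oxidation enzymes, ether lipid enzymes, membrane carriers and a few further enzymes. Each gene was read from the probe set that the platform annotation gives to its symbol alone, taking the one with the highest mean over the 10 arrays where there were several. In all, 33 of the 34 genes were measured this way, among 18820 genes with such a probe set, and they comprise 12 peroxins, 11 oxidation enzymes, 3 ether lipid enzymes, 4 membrane transport proteins and 3 other enzymes. Acot8, an acyl-CoA thioesterase, was not analysed because its probe sets are annotated to a neighbouring gene as well. None of the 33 passed the test in any of the 5 comparisons of drug and genotype. Among the 2 wild-type mice that gave organoids for both treatments, 14 of 33 genes (42.4%) read higher with rosiglitazone in each mouse, against 26.0% of all genes. Pex11a, Ech1, Acox2 and Ehhadh were among them. In each of the 2 such knockout mice 12 of 33 genes (36.4%) read higher, against 24.5% of all genes, Ech1 and Ehhadh among them. In the wild-type mouse with a rosiglitazone array only, these 2 genes lay below both wild-type vehicle arrays. The values below show how far the differences went.

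RNA came from colonic organoids, three-dimensional cultures of colon epithelium grown from crypts in Matrigel with Wnt, Noggin, R-spondin and EGF. The donors were male mice on a C57BL/6J background, 3 of each genotype. Knockout (KO) donors were homozygous for a Pparg allele with exons 1 and 2 flanked by loxP sites and carried Cre under the Villin promoter, which is active in gut epithelium. Wild-type (WT) donors were littermates. Cultures received 1 µM rosiglitazone, an agonist of the nuclear receptor PPARγ, or 0.1% DMSO as vehicle for 24 h. WT vehicle (n = 2) came from mice 42 and 47, WT rosiglitazone (n = 3) from mice 42, 47 and 48, KO vehicle (n = 2) from mice 44 and 46, and KO rosiglitazone (n = 3) from mice 44, 46 and 45. Mice 48 and 45 therefore had no vehicle array. Values are given in that order of mice throughout, on the deposited log2 scale, where a difference of 1 is a doubling of the signal.

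Peroxisomes are small organelles bounded by a membrane that import folded enzymes from the cytosol. Shuttling receptors bind the enzymes, dock at the membrane, release their cargo and are pulled out again by an ATPase after ubiquitination. Inside, very long, branched and unsaturated fatty acids are shortened by alpha- and beta-oxidation, and ether phospholipids are begun. In rodent liver many of these oxidation genes are known targets of the related receptor PPARα, and several respond to PPARγ agonists in fat cells.

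The Pparg probe set did not separate the genotypes under rosiglitazone, and in vehicle both KO arrays lay above both WT arrays. It read 8.35 and 8.41 in WT vehicle, 7.59, 7.93 and 8.30 in WT rosiglitazone, 8.47 and 8.58 in KO vehicle, and 8.41, 8.78 and 7.37 in KO rosiglitazone. Its position relative to the deleted exons is unknown here, so it cannot check the deletion, and groups are named by their labels. Both arrays of mouse 46 stood apart on the first principal component (27.4% of the variance; 31.75 and 39.3 against -19.6 to 4.1 elsewhere). Epithelial markers were bright in every array, with list means of 9.47 to 9.82 over 13 genes, although the colonocyte genes Slc26a3 and Aqp8 were dim, with medians of 2.30 and 2.39. Fibroblast and muscle markers (9 of 9 genes, means 2.71 to 2.88) and immune and endothelial markers (9 of 10 genes, means 2.19 to 2.43) were low throughout. Goblet cell markers (9 of 10 genes) averaged 7.54 in mouse 45 and 3.56 to 5.69 in the other arrays, and colonocyte markers (11 of 12 genes) averaged 5.27 to 6.12. Both arrays of mouse 46 had the lowest goblet cell means, 3.56 in each. They were also lowest for crypt and stem cell markers (7 of 8 genes), at 6.34 and 6.395, against 6.79 to 7.33 elsewhere. Small intestine and hepatocyte markers (8 of 9 genes) averaged 2.34 to 3.35, highest in mouse 45. In bulk RNA, fewer cells of a type and less RNA per cell cannot be told apart, and the part of these marker differences in the results below was not tested.

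As a group the 33 genes were well measured. For 32 of them the mean over all arrays was above 4.54, the median of all gene means, and the exception was Pxmp2, at 4.38. Residual standard deviations ran from 0.0766 for Slc25a17, a carrier of cofactors into the peroxisome, to 0.418 for Phyh, which opens phytanic acid alpha-oxidation. Their median was 0.191, beside 0.19 over all genes. Acox3 alone had a second, dim probe set (mean 2.39), which did not follow the one used (r = 0.08 over the 10 arrays).

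**Figure D1:**
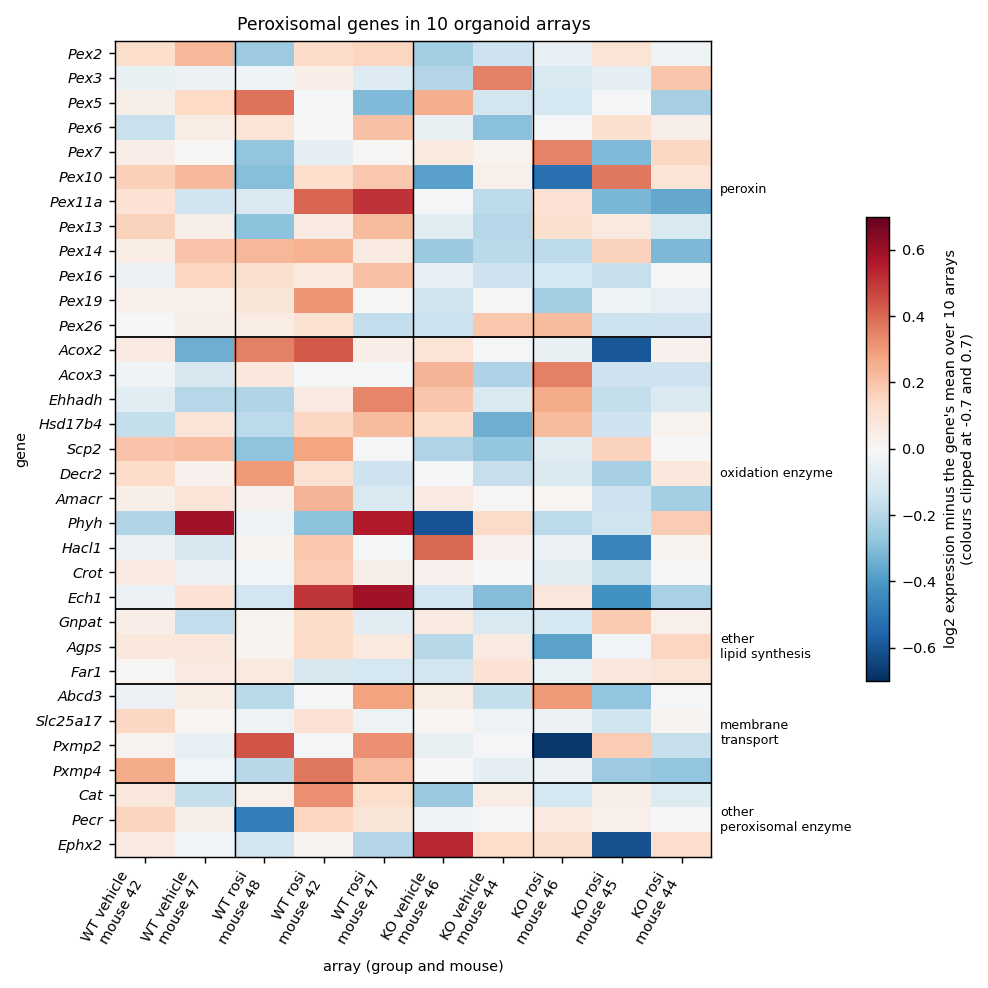
Each row is a measured peroxisomal gene, ordered by class, and each column an array, ordered by group and mouse; colour is the log2 value minus that gene's mean over the 10 arrays. Gene by gene, no class is uniformly coloured by genotype or treatment, while Phyh (6.17 to 7.37) and Ephx2 (6.32 to 7.46) span wide ranges. The peroxins' median is positive in every WT array (0.0099 to 0.11) and negative in every KO array (-0.14 to -0.02). That of the oxidation enzymes has both signs in each genotype. These array medians use the deposited scale and were not repeated with other scalings.

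The first comparison asks what rosiglitazone did where Pparg was intact. No peroxisomal gene was called in WT organoids (limma, adjusted p under 0.05; 0% of all 23099 probe sets were called), and none reached an unadjusted p under 0.05, as 0.991% of all probe sets did. Among the oxidation enzymes 8 of 11 had a positive fitted difference, with a median of 0.08, and among the peroxins 6 of 12, with a median of -0.0026. Over all genes the median was 0.02 and 54.8% were positive.

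Ech1 encodes a dienoyl-CoA isomerase that handles unsaturated fatty acids. It read 9.25 and 9.39 in WT vehicle, 9.79, 9.88 and 9.15 in WT rosiglitazone, 8.98 and 9.16 in KO vehicle, and 9.06, 9.37 and 8.87 in KO rosiglitazone. Both WT rosiglitazone arrays with a vehicle partner lay above every other array, and mouse 48 lay below both WT vehicle arrays. Within mice, the rosiglitazone minus vehicle difference was 0.54 and 0.49 in WT mice 42 and 47, and 0.08 and 0.21 in KO mice 44 and 46. The fitted WT difference was 0.29 (SE 0.22, limma adjusted p = 1), and 0.15 without the rosiglitazone array of mouse 47.

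Acox2 encodes the oxidase for branched-chain acyl-CoAs and bile acid intermediates. It read 7.58 and 7.18 in WT vehicle, 7.96, 7.57 and 7.88 in WT rosiglitazone, 7.51 and 7.62 in KO vehicle, and 7.55, 7.47 and 6.93 in KO rosiglitazone. The WT treatments overlapped only narrowly, mouse 47 with rosiglitazone lying just under mouse 42 with vehicle, and the paired mice differed by nearly the same amount. Within mice the difference was 0.37 and 0.39 in WT mice 42 and 47, and 0.04 and -0.15 in KO mice 44 and 46. The fitted WT difference was 0.42 (SE 0.21, limma adjusted p = 1), the largest among the 33 genes in this comparison, and 0.22 without the vehicle array of mouse 47.

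Ehhadh, the L-bifunctional enzyme that hydrates and dehydrogenates enoyl-CoAs, read 5.87 and 5.74 in WT vehicle, 6.00, 6.28 and 5.73 in WT rosiglitazone, 5.84 and 6.13 in KO vehicle, and 5.84, 6.20 and 5.78 in KO rosiglitazone. Mouse 48 again sat just below both WT vehicle values, while mice 42 and 47 sat above them. Within mice the difference was 0.13 and 0.54 in WT mice 42 and 47, and 0.0016 and 0.07 in KO mice 44 and 46, and the fitted WT difference was 0.20 (SE 0.19, limma adjusted p = 1).

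Pex11a, which elongates the peroxisomal membrane before division, was the peroxin with the largest WT difference. It read 6.85 and 6.61 in WT vehicle, 7.16, 7.25 and 6.65 in WT rosiglitazone, 6.57 and 6.73 in KO vehicle, and 6.39, 6.85 and 6.43 in KO rosiglitazone. Mice 42 and 47 with rosiglitazone gave the highest values of all arrays, and mouse 48 lay between the WT vehicle values. Within mice the difference was 0.31 and 0.65 in WT mice 42 and 47, and -0.18 and 0.11 in KO mice 44 and 46, and the fitted WT difference was 0.29 (SE 0.21, limma adjusted p = 1). Without the vehicle or the rosiglitazone array of mouse 47 it was 0.17.

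**Figure D2:**
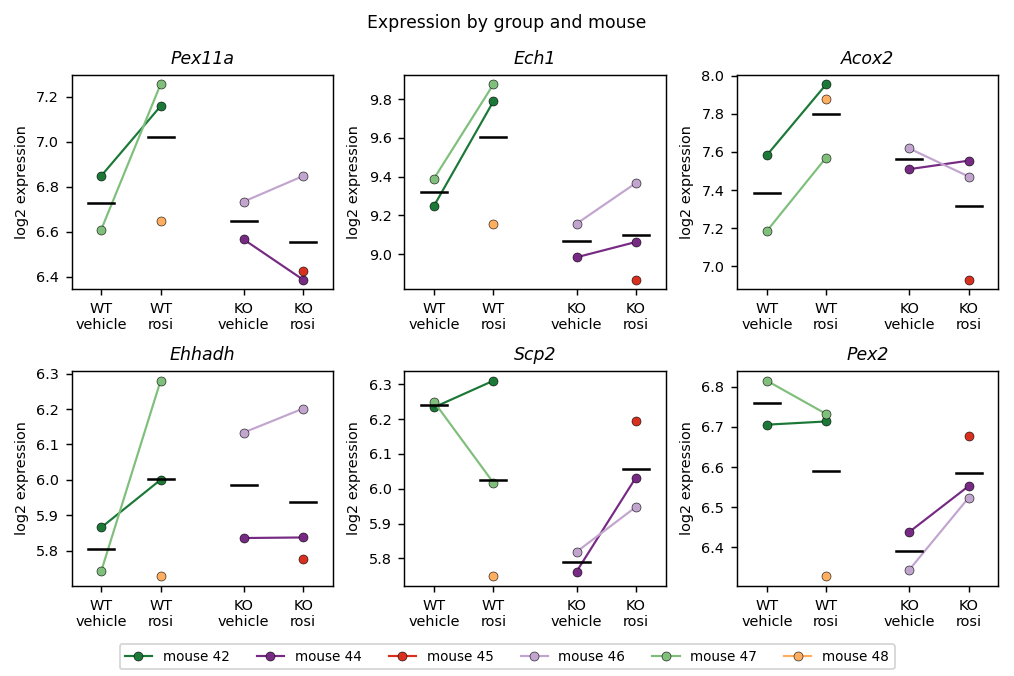
Log2 values of Pex11a, Ech1, Acox2, Ehhadh, Scp2 and Pex2 are plotted for vehicle and rosiglitazone, with a line joining the arrays of each mouse and unjoined points for mice 48 and 45, which have no vehicle array. For Pex11a, Ech1, Acox2 and Ehhadh both WT lines slope upward, and mouse 48 lies below the WT rosiglitazone points of mice 42 and 47 for each of them except Acox2.

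These are the genes that stood out when each mouse was its own control. With mouse as a fixed block the unpaired mice 48 and 45 carry no information on the drug, and the WT difference became 0.51 (SE 0.12, limma adjusted p = 0.972) for Ech1, 0.38 (SE 0.12, limma adjusted p = 1) for Acox2, 0.34 (SE 0.14, limma adjusted p = 1) for Ehhadh and 0.48 (SE 0.14, limma adjusted p = 1) for Pex11a. Those 4 of 33 genes reached an unadjusted p under 0.05 in that fit, as 3.85% of all probe sets did, and none was called after adjustment. In all, 14 of 33 genes (42.4%) were higher with rosiglitazone in both paired WT mice, against 26.0% of all genes, and they include 7 of 11 oxidation enzymes and 3 of 12 peroxins. Besides those named, the 14 include Cat, the catalase that removes peroxisomal hydrogen peroxide, which differed by 0.24 in mouse 42 and 0.29 in mouse 47, and Hsd17b4, the D-bifunctional enzyme, which differed by 0.31 and 0.13.

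The sequences just upstream of the oxidation enzyme genes Ech1, Acox2 and Ehhadh are shown. These genes read higher with rosiglitazone in both paired WT mice, as did Pex11a, whose sequence is not shown. Each sequence is the 150 bases before the most upstream RefSeq start (GRCm38.p6), 5′ to 3′ on the gene's own strand. It overlaps no other gene in that annotation. Capitals mark GGGCGG (a GC box), CCAAT or AGGTCA (the nuclear receptor half-site) on either strand. Ech1 lies on the plus strand at chr7:28825188-28825337, Acox2 on the minus strand at chr14:8259020-8259169, and Ehhadh on the minus strand at chr16:21787835-21787984.
Ech1: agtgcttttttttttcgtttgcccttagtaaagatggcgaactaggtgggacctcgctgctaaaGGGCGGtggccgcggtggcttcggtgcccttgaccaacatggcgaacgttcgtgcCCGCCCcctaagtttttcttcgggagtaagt
Acox2: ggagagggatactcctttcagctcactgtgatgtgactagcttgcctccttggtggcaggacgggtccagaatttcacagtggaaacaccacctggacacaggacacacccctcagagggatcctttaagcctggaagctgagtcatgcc
Ehhadh: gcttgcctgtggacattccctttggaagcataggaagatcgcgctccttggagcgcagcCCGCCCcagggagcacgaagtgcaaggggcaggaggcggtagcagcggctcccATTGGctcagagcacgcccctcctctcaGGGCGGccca
Ech1 carries 2 GC boxes here, Ehhadh 2 GC boxes and 1 CCAAT, and Acox2 none of the motifs. RefSeq promoter windows, 250 bases before to 50 after each start, were found for 28 of the 34 genes. None of the 28 held AGGTCANAGGTCA, the direct repeat that PPAR dimers bind, on either strand, and 0.0572% of 17492 coding genes did. The looser AGGNCANAGGNCA, which includes it, was in 0 of 28 and in 0.423% of coding genes. The half-site AGGTCA, which the strict repeat contains, was in the windows of Cat, Phyh and Scp2 (10.7%, against 16.7% of coding genes), GGGCGG in 23 of 28 (82.1% against 49.2%), and CCAAT in 14 of 28 (50% against 42.3%). A match is a run of letters and was not tested as a binding site. Both repeats are so rare over coding genes that 0 of 28 could hardly have come out otherwise. Bases outside these windows were not searched.

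In KO organoids the same drug comparison gave medians near 0 in both classes, and no gene was called (limma; 0% of all probe sets). None of the 33 reached an unadjusted p under 0.05, as 3.06% of all probe sets did, and with mouse as a fixed block none did either (7.49% of all probe sets). The oxidation enzymes had 5 of 11 positive differences with a median of -0.0031, the peroxins 7 of 12 with a median of 0.01, and over all genes the median was -0.02.

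Ephx2, Hacl1 and Scp2 were furthest from 0 in KO organoids, and Scp2, Acox2 and Pex2 ranked among the largest of their class in both genotypes. Their fitted drug differences in WT and KO were -0.22 and 0.27 for Scp2, 0.42 and -0.25 for Acox2, and -0.17 and 0.19 for Pex2. The Acox2 value in KO was -0.05 without mouse 45, and the Scp2 and Pex2 values in WT were -0.08 and -0.04 without mouse 48. Hacl1, the lyase that splits the alpha-oxidation intermediate, read 5.68 and 5.61 in WT vehicle, 5.91, 5.72 and 5.74 in WT rosiglitazone, 5.75 and 6.13 in KO vehicle, and 5.75, 5.68 and 5.26 in KO rosiglitazone. Only mouse 46 was far from 0 among the paired KO mice. Within mice the difference was 0.23 and 0.10 in WT mice 42 and 47, and -0.0042 and -0.45 in KO mice 44 and 46, and the fitted KO difference was -0.38 (SE 0.18, limma adjusted p = 1), or -0.19 without the vehicle array of mouse 46 and -0.23 without mouse 45. Scp2, the sterol carrier thiolase of branched-chain oxidation, read 6.23 and 6.25 in WT vehicle, 6.31, 6.02 and 5.75 in WT rosiglitazone, 5.76 and 5.82 in KO vehicle, and 6.03, 5.95 and 6.19 in KO rosiglitazone. Every KO rosiglitazone array lay above both KO vehicle arrays, and the fitted KO difference was 0.27 (SE 0.17, limma adjusted p = 1).

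Among the peroxins, Pex6, the ATPase that extracts import receptors, read 5.85 and 6.06 in WT vehicle, 6.01, 6.21 and 6.10 in WT rosiglitazone, 5.72 and 5.95 in KO vehicle, and 6.05, 6.00 and 6.12 in KO rosiglitazone. All KO rosiglitazone arrays exceeded both KO vehicle arrays, and the fitted KO difference was 0.22 (SE 0.13, limma adjusted p = 1), with 0.37 without mouse 46 and 0.10 without the vehicle array of mouse 44. Pex5, the receptor for enzymes with a C-terminal targeting signal, read 5.16 and 5.26 in WT vehicle, 5.11, 4.81 and 5.50 in WT rosiglitazone, 4.99 and 5.37 in KO vehicle, and 4.89, 5.00 and 5.11 in KO rosiglitazone, the dimmest peroxin by mean. Its values overlapped between treatments, and the fitted KO difference was -0.19 (SE 0.20, limma adjusted p = 1). Without mouse 46, or without its vehicle array alone, the Pex5 difference was 0.0037 or 0.0033, so its sign depended on that array.

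In all, 12 of 33 genes (36.4%) were higher with rosiglitazone in both paired KO mice, against 24.5% of all genes. They were Pex2, Pex6, Pex7, Pex13, Acox3, Ehhadh, Hsd17b4, Scp2, Abcd3, Phyh, Pecr and Ech1, of which 4 are peroxins and 6 oxidation enzymes. Pex6, Acox3, Ehhadh, Hsd17b4, Abcd3 and Ech1 were thus positive in all 4 paired mice. For Ech1 and Ehhadh the KO values were below the WT ones, as given above. For the others they were not all so: Hsd17b4 differed by 0.31 and 0.13 in the WT mice and by 0.36 and 0.09 in the KO mice, and Abcd3 by 0.03 and 0.23 and by 0.16 and 0.25. Pex6 differed by 0.16 and 0.15 and by 0.33 and 0.05, and Acox3 by 0.02 and 0.10 and by 0.07 and 0.12.

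**Figure D3:**
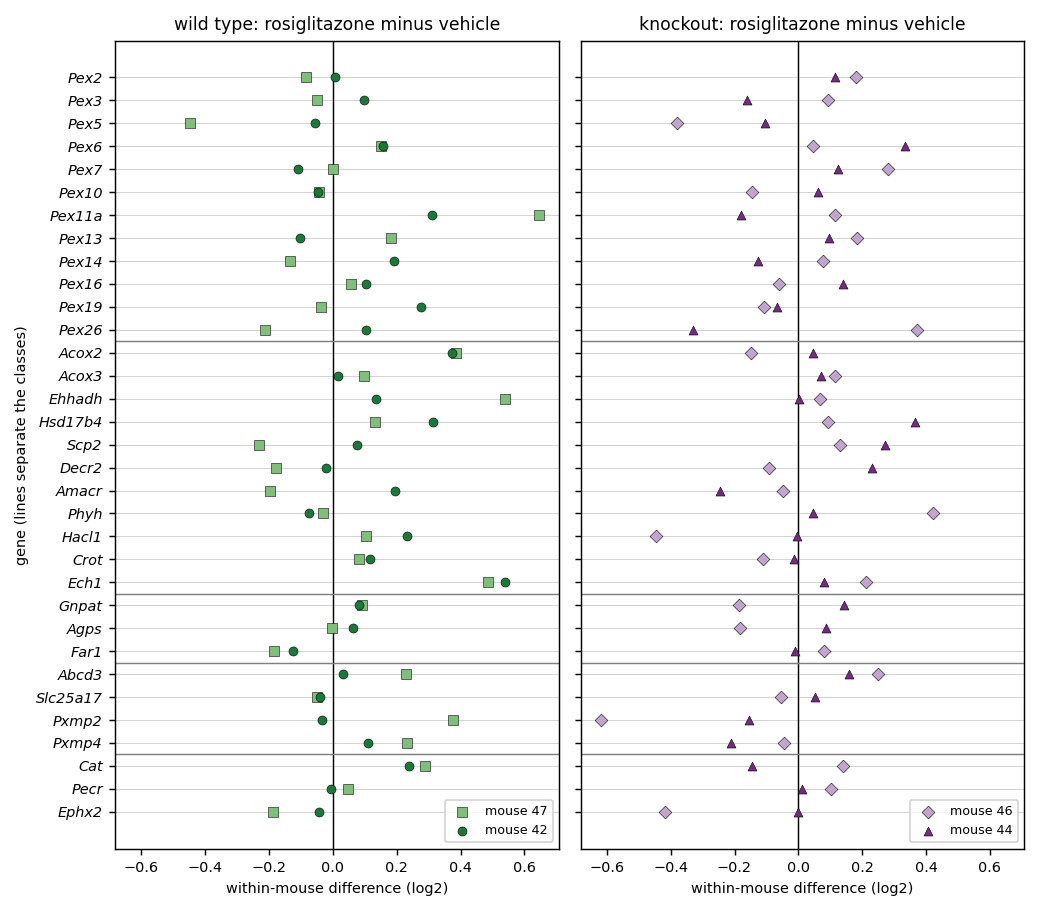
For each gene the rosiglitazone minus vehicle log2 difference is plotted for the 4 mice with both treatments, WT mice 42 and 47 and KO mice 46 and 44. The oxidation enzymes' medians are 0.13 and 0.10 in the WT mice and 0.07 and 0.04 in the KO mice, while the peroxins' medians are 0.10 and -0.04 in the WT mice and 0.09 and -0.003 in the KO mice.

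Whether the drug response differed by genotype was tested with the interaction, the KO response minus the WT response. No peroxisomal gene was called (limma; 0% of all probe sets). Acox2 alone reached an unadjusted p under 0.05, 1 of 33 genes against 2.32% of all probe sets, with a difference of responses of -0.66 (SE 0.30, 95% interval -1.32 to -0.01, limma adjusted p = 1). With mouse as a fixed block Acox2 stood at -0.43 (SE 0.17, limma adjusted p = 0.957) and Pex11a at -0.51 (SE 0.20, limma adjusted p = 0.957). Those were the 2 genes under an unadjusted p of 0.05 there, against 5.09% of all probe sets.

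The oxidation enzymes had a median difference of responses of -0.15, with 3 of 11 positive, the peroxins 0.02, with 6 of 12 positive, and all genes -0.04. Few genes had one sign in both paired WT mice and the opposite sign in both paired KO mice. The fitted drug differences had opposite signs in more genes, such as Scp2, Acox2 and Pex2 above. Hacl1, Crot, which shuttles shortened acyl groups onto carnitine, and Pxmp4, a peroxisomal membrane protein, were higher with rosiglitazone in both paired WT mice and lower in both KO mice, 3 of 33 against 6.12% of all genes. Phyh alone was the reverse, 1 of 33 against 5.64%. These shares, 9.09% and 3.03% of the members, lie near the background and are not a result about the members.

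Genotype was compared next without the drug. In vehicle no gene was called (limma; 0% of all probe sets), and 2 of 33, Pex2 and Scp2, reached an unadjusted p under 0.05, against 5.69% of all probe sets. Neither stayed under 0.05 with mouse as a random block (0 of 33 genes against 4.63% of all probe sets), with each array centred on its median or with quantile normalization repeated. Fitted KO minus WT differences of the peroxins leaned to negative values, 10 of 12 with a median of -0.11. The oxidation enzymes had 6 of 11 negative with a median of -0.03, and the median over all genes was 0.03. This lean depended on the scaling. With each array centred on its median, all genes had a median of 0.16 and the peroxins 0.02, with 5 of 12 negative, so the peroxins stayed below all genes but not below 0. With quantile normalization repeated, the peroxin median was -0.06, with 8 of 12 negative. Centring also took the vehicle differences of Pex2, Pex10 and Pex14, given next, to -0.24, -0.24 and -0.22. Colonocyte markers averaged 5.74 and 6.12 in the WT vehicle arrays and 5.27 and 5.37 in the KO ones, and their part in these values was not tested.

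Pex2, a RING ubiquitin ligase that marks receptors for recycling, read 6.71 and 6.82 in WT vehicle, 6.71, 6.73 and 6.33 in WT rosiglitazone, 6.44 and 6.34 in KO vehicle, and 6.55, 6.52 and 6.68 in KO rosiglitazone. Both KO vehicle arrays were below both WT vehicle arrays, but the KO and WT rosiglitazone arrays overlapped. The vehicle difference was -0.37 (SE 0.16, 95% interval -0.73 to -0.01, limma adjusted p = 0.855). Pex10, another RING ligase of the same complex, read 7.05 and 7.12 in WT vehicle, 7.01, 7.07 and 6.59 in WT rosiglitazone, 6.92 and 6.51 in KO vehicle, and 6.98, 6.36 and 7.25 in KO rosiglitazone, and differed by -0.37 (SE 0.28, limma adjusted p = 0.867) in vehicle, with -0.16 without mouse 46 and -0.58 without mouse 44's vehicle array. Its 2 lowest values in all are the arrays of mouse 46.

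Pex14, part of the docking complex for loaded receptors, read 6.33 and 6.48 in WT vehicle, 6.52, 6.34 and 6.51 in WT rosiglitazone, 6.09 and 6.02 in KO vehicle, and 5.96, 6.09 and 6.44 in KO rosiglitazone. Both KO vehicle arrays lay below the WT ones, and the vehicle difference was -0.35 (SE 0.17, limma adjusted p = 0.855). Scp2, given above, differed by -0.45 (SE 0.18, 95% interval -0.85 to -0.05, limma adjusted p = 0.855), and its KO rosiglitazone arrays lay within the range of the WT ones. Phyh read 6.57 and 7.37 in WT vehicle, 6.49, 7.34 and 6.75 in WT rosiglitazone, 6.91 and 6.17 in KO vehicle, and 6.96, 6.60 and 6.64 in KO rosiglitazone. Its groups overlapped, and mouse 47 was highest in either treatment. The vehicle difference of Phyh was -0.42 (SE 0.34, limma adjusted p = 0.872). It was -0.05 without mouse 46, -0.02 without the vehicle array of mouse 47, -0.82 without that of mouse 42 and -0.79 without that of mouse 44.

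Counted by rank, every KO vehicle array was below every WT vehicle array for 12 of 33 genes (36.4%), against 16.2% of all genes. These were Pex2, Pex10, Pex13, Pex14, Pex16, Pex19, Scp2, Decr2, Ech1, Pecr, Agps and Slc25a17, so 6 of 12 peroxins and 3 of 11 oxidation enzymes. The reverse order held for Hacl1 and Ephx2, 2 of 33 against 23.3% of all genes. The vehicle groups hold 2 arrays each. Without mouse 46 a lone KO array remained, and the count was 20 of 33, against 33.6% of all genes. With arrays centred on their medians it was 4 of 33, against 6.79% of all genes, and with quantile normalization repeated 8 of 33, against 16.4%.

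With rosiglitazone in both genotypes, again no peroxisomal gene was called (limma), although 0.0216% of all probe sets, 5 of 23099, were. Pex11a, Acox2, Ech1 and Pxmp2 reached an unadjusted p under 0.05, 4 of 33 against 4.81% of all probe sets. None of them did with each array centred on its median, and Pxmp2 did not with quantile normalization repeated. The oxidation enzymes had 9 of 11 negative differences with a median of -0.15, and the peroxins 9 of 12 with a median of -0.04, where all genes had -0.0012. Centring gave 7 of 11 and -0.06 for the enzymes, 5 of 12 and 0.05 for the peroxins, and 0.09 over all genes, and quantile normalization gave 9 of 11 and -0.14, and 5 of 12 and 0.0047. The KO minus WT difference was -0.51 (SE 0.20, 95% interval -0.95 to -0.07, limma adjusted p = 0.999) for Ech1. For Acox2 it was -0.48 (SE 0.19, 95% interval -0.90 to -0.07, limma adjusted p = 0.999), and every KO array lay below every WT array. It was -0.29 without mouse 45. For Pex11a it was -0.47 (SE 0.19, 95% interval -0.88 to -0.06, limma adjusted p = 0.999), with KO mouse 46 above WT mouse 48. These arrays also enter the drug comparisons above, so the same values stand behind both.

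Pxmp2, a channel protein of the peroxisomal membrane, read 4.40 and 4.32 in WT vehicle, 4.37, 4.70 and 4.82 in WT rosiglitazone, 4.37 and 4.32 in KO vehicle, and 4.22, 3.70 and 4.55 in KO rosiglitazone. The KO mouse 46 array with rosiglitazone was the lowest, mouse 44 also lay below the WT rosiglitazone arrays, and mouse 45 lay among them. The difference under rosiglitazone was -0.47 (SE 0.20, 95% interval -0.92 to -0.02, limma adjusted p = 0.999), and -0.24 without mouse 46. Pex19, the chaperone that carries membrane proteins to the peroxisome, read 8.29 and 8.29 in WT vehicle, 8.56, 8.26 and 8.34 in WT rosiglitazone, 8.26 and 8.12 in KO vehicle, and 8.20, 8.01 and 8.22 in KO rosiglitazone, and differed by -0.24 (SE 0.12, limma adjusted p = 0.999) with the groups apart, and by -0.16 without the rosiglitazone array of mouse 42. Pex16, which helps receive them at the membrane, had WT rosiglitazone values of 8.31, 8.45 and 8.35 and KO values of 8.23, 8.12 and 8.08, also apart.

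Pex16, Pex19 and Acox2 were the 3 of 33 genes with every KO array lower under rosiglitazone, against 4.77% of all genes, and 0 had every KO array higher, against 4.23%. The count moved with single mice. It was 8 without mouse 46 (9.6% of all genes), 6 without mouse 45 (11.3%) and 10 without mouse 48 (9.24%).

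**Figure D4:**
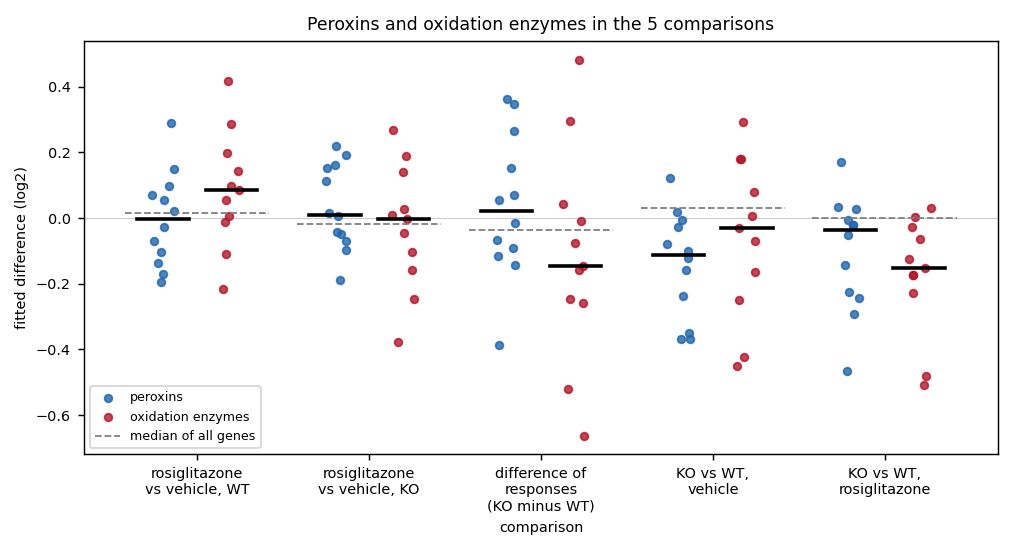
Fitted log2 differences of the peroxins and the oxidation enzymes are plotted for the 5 comparisons, each point a gene, each bar the class median and each dashed line the median of all genes. In vehicle the peroxin median is -0.11 and the enzyme median -0.03, and under rosiglitazone they are -0.04 and -0.15. With each array centred on its median these become 0.02, 0.10, 0.05 and -0.06.

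Setting the classes side by side, the enzyme median minus the peroxin median was 0.09 for the drug in WT, -0.01 for the drug in KO, -0.17 for the difference of responses, 0.08 for genotype in vehicle and -0.11 for genotype under rosiglitazone. The same gap taken within each array, each gene centred on its own mean, varied about as much among arrays of a group, with a pooled standard deviation of 0.088. It was -0.07 and -0.02 in WT vehicle, 0.09, -0.06 and -0.03 in WT rosiglitazone, 0.03 and 0.17 in KO vehicle, and 0.05, 0.04 and -0.14 in KO rosiglitazone. Both KO vehicle arrays lay above both WT vehicle arrays, the other groups overlapped, and the most negative value was that of mouse 45, the array with the high goblet cell markers, whose part in it was not tested. Without it the gap for genotype under rosiglitazone was 0.06 in place of -0.11. No p is given, since the genes were chosen with results of these data known.

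The ether lipid enzymes stayed close to 0. Agps, which puts in the ether bond, read 7.38 and 7.38 in WT vehicle, 7.45, 7.38 and 7.33 in WT rosiglitazone, 7.37 and 7.12 in KO vehicle, and 7.46, 6.93 and 7.29 in KO rosiglitazone. Far1, which supplies the fatty alcohol, read 8.30 and 8.35 in WT vehicle, 8.18, 8.17 and 8.36 in WT rosiglitazone, 8.39 and 8.16 in KO vehicle, and 8.38, 8.24 and 8.36 in KO rosiglitazone. Mouse 46 gave the 2 lowest Agps values, and Far1 varied little. Over these genes and Gnpat, the acyltransferase that starts the pathway, fitted differences in the 5 comparisons lay between -0.16 and 0.14.

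Of the membrane transport genes, 0 of 4 had a positive genotype difference in vehicle (median -0.08), against 55.6% of all genes. Under rosiglitazone 0 of 4 did (median -0.19), against 49.7%, and Pxmp2 alone had an unadjusted p under 0.05. These counts were not repeated with each array centred on its median. That scaling raised the median of all genes from 0.03 to 0.16 in vehicle and from -0.0012 to 0.09 under rosiglitazone. Abcd3, the transporter that takes branched acyl-CoAs and bile acid intermediates into the organelle, read 9.44 and 9.54 in WT vehicle, 9.47, 9.77 and 9.30 in WT rosiglitazone, 9.32 and 9.54 in KO vehicle, and 9.48, 9.79 and 9.21 in KO rosiglitazone. Its groups overlapped in both genotype comparisons. Among the other enzymes Cat read 9.44 and 9.19 in WT vehicle, 9.68, 9.48 and 9.39 in WT rosiglitazone, 9.41 and 9.10 in KO vehicle, and 9.27, 9.24 and 9.40 in KO rosiglitazone. Pecr, a reductase of enoyl-CoAs, read 6.08 and 5.97 in WT vehicle, 6.08, 6.01 and 5.44 in WT rosiglitazone, 5.91 and 5.89 in KO vehicle, and 5.92, 6.00 and 5.96 in KO rosiglitazone. Cat overlapped between groups, and one low array, that of mouse 48, set the spread of Pecr. Ephx2, the soluble epoxide hydrolase, had the lowest fitted drug difference in KO, -0.45 (SE 0.22, limma adjusted p = 1), and its value in mouse 45 was 6.32 where the other arrays gave 6.72 to 7.46. Goblet cell markers were high in that same array, and their part was not tested.

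Beyond these, 51 of 61 further listed peroxisomal genes were measured, and none was called in any comparison (limma). Their medians were 0.02 for the drug in WT, -0.04 for the drug in KO, -0.06 for the difference of responses, 0.04 for genotype in vehicle and -0.05 for genotype under rosiglitazone. Acaa1b, a peroxisomal thiolase, had the highest fitted drug difference in WT of all 18820 genes, at a dim level. It read 3.06 and 2.91 in WT vehicle, 4.30, 4.80 and 3.53 in WT rosiglitazone, 3.89 and 2.88 in KO vehicle, and 3.70, 3.49 and 3.02 in KO rosiglitazone. The WT rosiglitazone arrays all lay above the WT vehicle arrays, and both KO arrays of mouse 44, vehicle and rosiglitazone, reached into their range. The fitted drug difference of Acaa1b was 1.22 (SE 0.37, limma adjusted p = 1) in WT, its difference of responses -1.21 (SE 0.53, limma adjusted p = 1), and its genotype difference under rosiglitazone -0.81 (SE 0.33, limma adjusted p = 0.999).

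Other genes of that list lay nearer 0. Pex11g, a further peroxin of division, differed by -0.45 (SE 0.21, limma adjusted p = 1) with the drug in WT and by -0.59 (SE 0.23, limma adjusted p = 0.855) by genotype in vehicle. Pipox, which oxidises pipecolic acid, differed by 0.50 (SE 0.16, limma adjusted p = 1) with the drug in KO. Among the acyl-CoA thioesterases, Acot4 differed by 0.39 (SE 0.39, limma adjusted p = 1) with the drug in WT. The probe sets of Acot3 (1.90 to 2.77) and Acot5 (2.02 to 2.82) read as low as the fibroblast and immune markers in every array, and that of Pipox 2.91 to 3.68. With the drug in KO, Acot3 differed by -0.38 (SE 0.21, limma adjusted p = 1) and Acot5 by -0.39 (SE 0.21, limma adjusted p = 1). The difference of responses was -0.62 (SE 0.30, limma adjusted p = 1) for Acot5 and 0.53 (SE 0.32, limma adjusted p = 1) for Nudt19, a coenzyme A hydrolase. By genotype in vehicle, Acot5 differed by 0.45 (SE 0.23, limma adjusted p = 0.855) and Idh1, an isocitrate dehydrogenase, by -0.44 (SE 0.20, limma adjusted p = 0.855). Under rosiglitazone, Hsdl2 differed by -0.48 (SE 0.22, limma adjusted p = 0.999) and Acad11, an acyl-CoA dehydrogenase, by -0.44 (SE 0.21, limma adjusted p = 0.999).

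The remaining genes are the membrane protein inserters Pex3 and Pex16, the receptor Pex7, the docking protein Pex13, the ATPase anchor Pex26, the oxidation enzymes Acox3, Hsd17b4, Decr2, Amacr and Crot, and Gnpat, Slc25a17, Pxmp4 and Ephx2. Over these 14 genes the fitted differences ran from -0.14 (Pex7) to 0.10 (Hsd17b4) with the drug in WT, from -0.45 (Ephx2) to 0.16 (Pex13) with the drug in KO and from -0.32 (Ephx2) to 0.26 (Pex13) for the difference of responses. They ran from -0.24 (Pex13) to 0.30 (Ephx2) by genotype in vehicle and from -0.32 (Pxmp4) to 0.17 (Pex7) by genotype under rosiglitazone. None of these reached an unadjusted p under 0.05.

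How firmly a difference is bounded depends on the array number. The median half-width of the 95% confidence interval over the 33 genes was 0.38 for each drug comparison, 0.54 for the difference of responses, 0.42 for genotype in vehicle and 0.34 for genotype under rosiglitazone. An interval that holds 0 does not show that levels were equal. Among the WT rosiglitazone arrays, mouse 42 was the lowest for 4 of 33 genes and the highest for 16, mouse 47 for 14 and 12, and mouse 48 for 15 and 5. Over all genes mouse 42 was the lowest for 32.3% and the highest for 32.2%, mouse 47 for 37.3% and 24.6%, and mouse 48 for 30.4% and 43.2%. Among the KO rosiglitazone arrays, mouse 44 was the lowest for 8 genes and the highest for 11, mouse 46 for 12 and 12, and mouse 45 for 13 and 10. Over all genes mice 44, 46 and 45 were the lowest for 26.2%, 32.2% and 41.6%, and the highest for 35.4%, 34.1% and 30.6%.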

How the data were processed

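The authors deposited log2 expression values from Affymetrix gene arrays, made by RMA per the submitters' processing notes, with the RMA version and chip definition not given in the sources used here. RMA subtracts background, makes the arrays' distributions alike and summarises probes, so a shift shared by all genes would not be seen. Values ran from 0.73 to 13.55, and array medians from 3.54 to 3.72. The table holds 35556 probe sets, of which 23099 are listed in the platform annotation and were tested, and 12457 are unnamed here. Of these, 21218 carry 1 symbol and 1881 several. Array correlations were 0.985 to 0.997, and 0 pairs were identical. Precision is set by how many arrays each group holds.

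The 4 groups were fitted together in limma 3.58.1 (R 4.3.3) as group means over 10 arrays, with empirical Bayes moderation (6 residual and 4.39 prior degrees of freedom) and two-sided tests, adjusted by Benjamini-Hochberg over all 23099 probe sets. A gene was called at an adjusted p under 0.05. Replicate numbers do not mark the mouse, but the labels name the donor. Differences between mice correlated at 0.44 (WT) and 0.487 (KO) across treatments, and 8 of 8 arrays of paired mice lay closest to their own mouse. Organoids of one donor are not independent animals, so mouse was also fitted as a random and as a fixed block, the latter for drug comparisons only. On simulated data for KO against WT under rosiglitazone, with 23099 probe sets, the fit recovered 10 of 50 changes of 0.5, 33 of 50 of 1, 48 of 50 of 2 and 50 of 50 of 3, with 6 false calls.

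Values in every array are given for genes at an adjusted or unadjusted p under 0.05 in any comparison, the 3 largest differences of the peroxins and of the oxidation enzymes in each comparison, and the brightest and dimmest gene of each class. Further peroxisomal genes are named for the 3 largest differences in each comparison. Genes outside this rule, such as Ehhadh, Hsd17b4, Pex16 and Ephx2, were chosen after their values were seen. The members and lists were chosen with earlier results of these data known. Promoter sequences are RefSeq's (GRCm38.p6). Alternatives changed the block, scaling, probe set filters, prior, array weights, class summary and which arrays entered.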

Additional observations from a re-analysis of the deposited data

Results flagged for a closer look

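In 4 genes both paired WT mice differed one way with rosiglitazone and both paired KO mice the other, and each is given as the KO minus WT response with mouse as a fixed block. For Hacl1 the difference of responses was -0.39, from 0.23 and 0.10 in WT mice 42 and 47 and -0.0042 and -0.45 in KO mice 44 and 46. For Pxmp4 it was -0.30, from 0.11 and 0.23 in the WT mice and -0.21 and -0.05 in the KO mice. For Crot it was -0.16, from 0.12 and 0.08 against -0.01 and -0.11. For Phyh it was 0.29, from -0.08 and -0.03 against 0.04 and 0.42. The interaction did not pass the test in any of them (limma adjusted p of 0.972, 0.972, 0.983 and 0.977 in that order). Over all genes 6.12% were higher in both WT mice and lower in both KO mice, and 5.64% the reverse. The members' shares, 9.09% and 3.03%, lie near these and are not a result about the members. Some of the signs rest on values close to no difference, such as -0.0042 for Hacl1 and -0.01 for Crot.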

How the results depend on the processing

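No member was called under any of the 22 settings of the drug comparisons and their difference, or the 21 of the genotype comparisons, and the lowest limma adjusted p among members was 0.972 (drug in WT, with the donor as a fixed replicate block), 0.585 (drug in KO), 0.935 (difference of responses), 0.512 (genotype in vehicle) and 0.317 (genotype under rosiglitazone). Calls over all probe sets ranged from 1 to 23 for genotype under rosiglitazone and from 0 to 6 in the other comparisons. With donor as a random replicate block (consensus correlation 0.438), 0, 1, 0, 1 and 6 probe sets were called, and with the fixed block 0 in each drug comparison, where 889, 1729 and 1175 had an unadjusted p under 0.05; the pairing changed no member's call. Leaving out single arrays moved the enzyme minus peroxin gap over 0.0115 to 0.1372 (drug in WT), -0.2174 to 0.0719 (drug in KO), -0.3039 to -0.0756 (difference of responses), 0.0621 to 0.1849 (genotype in vehicle) and -0.1192 to 0.0565 (genotype under rosiglitazone). With only the 4 mice that gave both treatments, the last was 0.0258. Array weights, scaling, filters and class summaries moved each gap by less than 0.088, its pooled array spread. That spread exceeds the gaps themselves for both drug comparisons and for genotype in vehicle, so a shift of that size could reverse their sign. Over all settings the gap stayed positive for the drug in WT (0.0115 to 0.1372) and for genotype in vehicle (0.0502 to 0.1849). It changed sign for genotype under rosiglitazone (-0.1455 to 0.0565), although that gap exceeds the spread, and for the drug in KO. With the fixed block, for example, the gap for the drug in KO went from -0.0135 to 0.0719. Pex5 with the drug in KO turned to 0.0037 without mouse 46 and 0.0033 without its vehicle array, against -0.3782 without the vehicle array of mouse 44. The other 30 of 31 gene and comparison pairs kept direction and side of the threshold. Counts of members lower in every KO array, chosen as alternatives after seeing the data, were 20 in vehicle without mouse 46 (12 with it), and under rosiglitazone 8, 6 and 10 without mouse 46, 45 or 48 (3 with all). Centring arrays on their medians gave 4 in vehicle (6.79% of all genes) and 2 under rosiglitazone (1.76%). Quantile normalization gave 8 (16.4%) and 4 (4.84%). Centring used each array's median over the 23099 annotated probe sets, which is not the array median quoted above. It moved the median of all genes from 0.03 to 0.16 in vehicle. Why those medians differed between the groups was not tested.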
